A study of Mus musculus with 18 samples.

Results

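The platelet-derived growth factor (PDGF) system comprises 6 genes, the ligands Pdgfa, Pdgfb, Pdgfc and Pdgfd and the receptors Pdgfra and Pdgfrb. They were taken by symbol from the 35655 genes of the count table, and all 6 were among the 10312 genes that had enough counts to be tested. The libraries came from the carotid artery of WT C57/BL6 mice, which the study's methods give as male and 11 weeks old at wire injury of the left carotid. Before injury (day 0) 4 libraries were made, followed by 4 at day 7, 3 at day 14, 4 at day 21 and 3 at day 28. Tissue inside the outer elastic lamina, neointima included, was cut by laser from stained frozen sections, with up to 70 sections in a collection, so each library is a mixture of cells. The study describes the neointima material as pooled, and used the right carotid as its control vessel. Each label ends in a number, read here as that of a mouse although the labels do not call it so. The numbers differ within each day, and 3 day 0 libraries carry the number of a day 21 library. The sources used here do not say if those day 0 arteries were contralateral vessels of operated animals. Nothing states outright that the libraries of a day came from separate animals, and p-values measure the spread between libraries, which may in part be technical.

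PDGFs are dimeric mitogens that act through 2 receptor tyrosine kinases, of which the α receptor binds the A, B and C chains and the β receptor binds the B and D chains. The A and B chains are cut inside the cell by furin-type proteases, whereas the C and D chains are secreted with an inhibitory CUB domain that plasminogen activators and related proteases remove outside the cell. In the artery wall, platelets, endothelium and macrophages are known sources of the B chain, and medial smooth muscle carries the β receptor and migrates and divides in response.

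Sequencing was by MACE (massive analysis of cDNA ends), in which a single fragment next to the polyadenylated 3′ end is read per transcript, and values are given as CPM, counts scaled to the same total in every library after normalization between libraries. These counts were not divided by transcript length, so each gene is compared with itself over days. Libraries held 440675 to 878310 counts, and 1 count was worth 1.18 to 2.33 CPM. A gene was called changed at an adjusted p under 0.05 in edgeR's quasi-likelihood test over all genes. The tissue carried its labelled cells: all 10 smooth muscle markers, Acta2 and Myh11 among them, had counts in every library. The levels of cell type markers moved with the day. The summed level of the 10 smooth muscle markers was 35153 to 40202 CPM on day 0 and 1729 to 7476 on day 7, and then 8001 to 25107, 9017 to 23087 and 21583 to 30240 over days 14, 21 and 28. The 13 macrophage markers summed to 118 to 527 CPM before injury and 5276 to 7691 a week later, and then to 1464 to 3304, 2066 to 3792 and 885 to 1261. In such material, fewer cells of a type and less RNA per cell cannot be told apart.

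Promoter windows were taken from RefSeq's promoter table (GRCm38.p6) for 4 of the 6 members, and none was taken for Pdgfb and Pdgfrb. The stretches below are shown because Pdgfa and Pdgfc were the pair of ligands that were higher on day 21 than on both day 0 and day 7. Each is read 5′ to 3′ on the gene's strand, cut from the 250 bases before a start site to the longest run without a 20-base match to an annotated transcript of the gene. Capitals mark a GC box (GGGCGG or its reverse complement).
Pdgfa, chr5:138994282-138994397, minus strand, bases 116 to 1 before the start: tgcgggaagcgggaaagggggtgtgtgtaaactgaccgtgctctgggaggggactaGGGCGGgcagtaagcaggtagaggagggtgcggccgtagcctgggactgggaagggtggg
Pdgfc, chr3:81036166-81036360, plus strand, bases 250 to 56 before the start: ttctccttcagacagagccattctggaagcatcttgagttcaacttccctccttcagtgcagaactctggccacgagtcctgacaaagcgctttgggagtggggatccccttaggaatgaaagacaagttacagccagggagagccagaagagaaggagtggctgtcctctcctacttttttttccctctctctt
The GC box in the Pdgfa stretch begins 60 bases before the start. A GC box was present in 32.7% of the 32851 windows of this length in the table, and the Pdgfc window held none. The other motifs searched on both strands were TATAAA, found in 12.4% of windows, the EGR site (GCGTGGGCG or GCGGGGGCG), found in 3.06%, and the CArG box of serum response factor, found in 1.47%. Neither stretch held one of these, and the whole Pdgfc window held a CArG box 17 bases before the start. The table holds a second start site of Pdgfa, whose window had GC boxes 93 and 86 bases before it and a GC content of 72.4%, and which lay wholly in annotated transcripts. The GC content of the 250 bases was 66.4% for the Pdgfa site shown and 50.8% for Pdgfc, against a median of 52.4% over all windows.

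All 6 members are protein-coding genes in the GENCODE annotation of GRCm39. Pdgfa lies at chr5:138961758-138983435 on the minus strand, Pdgfb at chr15:79880009-79899181 on the minus strand, Pdgfc at chr3:80943668-81121473 on the plus strand and Pdgfd at chr9:6168240-6379265 on the plus strand. Pdgfra lies at chr5:75311994-75358876 and Pdgfrb at chr18:61178212-61218133, both on the plus strand. Exons of Pdgfa overlap 6330403L08Rik on the opposite strand, those of Pdgfc overlap Gm16000, and those of Pdgfra overlap Gm42802 and Gm42803 on the opposite strand and Mir7025 on the same strand. The sources used here do not say whether the counting used the strand, so reads of these genes may be shared with their partners.

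Against day 0, at least 1 ligand was called on each later day, whereas no receptor was. Whether ligands and receptors differ was not tested. On day 21 the log2 fold change of Pdgfra, not called (adjusted p = 0.0925 from edgeR), was 1.30, and that of Pdgfa, called, was 1.26. On day 7, Pdgfb rose and Pdgfd fell. On day 14, Pdgfc was higher, and on day 21 Pdgfa, Pdgfb and Pdgfc were higher. On day 28, Pdgfc alone of the 6 was called. Day 7 thus had 2 of 6 members called, where 19.8% of all genes tested were. The member counts were 1 of 6 for day 14 (6.22% of all genes), 3 of 6 for day 21 (8.84%) and 1 of 6 for day 28 (1.34%). Members whose libraries lay entirely beyond those of day 0 numbered 2, 5, 4 and 1 on days 7, 14, 21 and 28. Over all genes tested, the corresponding shares were 23.3%, 17.5%, 16.1% and 9.95%.

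**Figure D1:**
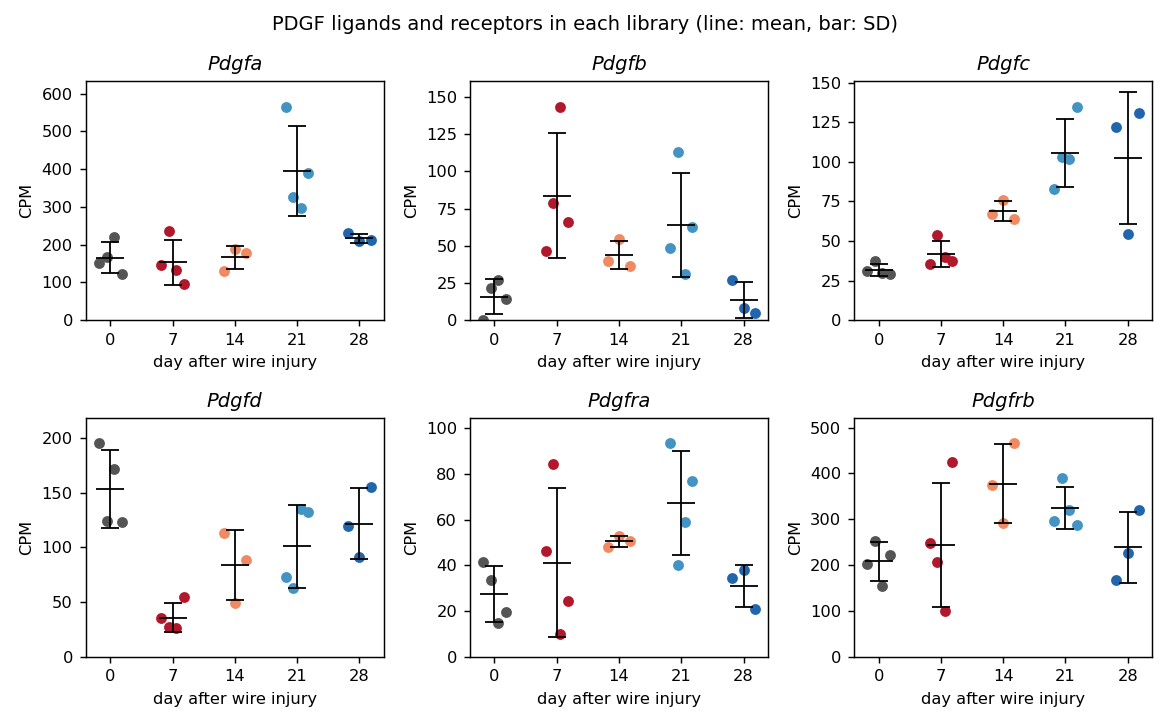
Level of each member (CPM, linear axis from 0, scaled per gene) in every library by day after wire injury, where each point is 1 library, the long line the mean and the bar the SD. Pdgfa peaked on day 21 at 395 CPM, Pdgfb was highest on day 7 at 83.8, Pdgfd was lowest on day 7 at 35.8, and the receptors' libraries spread widely on day 7.

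Pdgfa encodes the A chain, the classical ligand of the α receptor. Its 4 libraries stood at 152, 167, 219 and 122 CPM on day 0 and at 146, 237, 134 and 95.3 on day 7. The values were 131, 189 and 179 CPM on day 14, 565, 327, 296 and 391 on day 21, and 230, 208 and 211 on day 28. All 4 day 21 libraries lay above every library of the other days, while days 0, 7 and 14 overlapped each other. The order of the means was day 7 (153 CPM), day 0 (165), day 14 (166), day 28 (216) and day 21 (395). Between day 0 and day 21, Pdgfa rose 2.40-fold, with a log2 difference of 1.26 (SE 0.28, edgeR adjusted p = 0.00439). The call was made in all 18 fits that each left out 1 library, at an adjusted p of at most 0.0295, reached without day 21 replicate 1. Days 7, 14 and 28 gave log2 fold changes of -0.11, 0.01 and 0.39 against day 0, with adjusted p of 0.847, 0.995 and 0.567 from edgeR.

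Pdgfb encodes the B chain, which binds both receptors and is the ligand that recruits mural cells. The gene was sparse, with 0 to 72 counts per library. On day 0 its libraries held 0, 21.5, 26.8 and 14.4 CPM, and the 0 of replicate 1 allows up to 4.47 CPM, a limit that covers counting error only. On day 7 they held 46.3, 79.1, 144 and 66.2 CPM, all above day 0. Day 14 stood at 40.0, 54.7 and 36.5 CPM, day 21 at 48.5, 113, 31.2 and 62.8, and day 28 at 27.3, 8.27 and 4.79. All libraries of days 7, 14 and 21 exceeded all of day 0, those of day 28 did not, and days 7, 14 and 21 overlapped each other. The means thus ordered as day 28 (13.5 CPM), day 0 (15.7), day 14 (43.7), day 21 (63.9) and day 7 (83.8).

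On day 7 Pdgfb was 5.24-fold higher than on day 0, with a log2 difference of 2.39 (SE 0.61, edgeR adjusted p = 0.00569). The call was kept in all 18 fits without 1 library and was lost with the mouse number as a block (adjusted p = 0.138 from edgeR), a fit in which 3 of the 4 day 0 libraries share a term with a day 21 library. The day 21 value was 3.98-fold above day 0, with a log2 difference of 1.99 (SE 0.61, edgeR adjusted p = 0.0395). This call was lost with the mouse block (adjusted p = 0.0876) and in 7 of the 18 fits without 1 library, namely without replicates 1, 2 or 4 of day 0, replicate 2 of day 7, or replicates 1, 2 or 4 of day 21. The adjusted p from edgeR in these 7 fits was 0.0506 to 0.161, highest without day 21 replicate 2. Day 14 had a log2 fold change of 1.45 that did not pass (adjusted p = 0.225 from edgeR), and day 28 one of -0.21 (adjusted p = 0.930).

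The macrophage marker list was higher on the days on which Pdgfb was higher, with all 13 of its genes called on days 7, 14 and 21 and 4 on day 28. Over the 18 libraries the correlation of log2 CPM between Pdgfb and the summed macrophage list was 0.61, given as a description of libraries that share their day. It was 0.68 with the proliferation markers, 0.60 with the platelet list, 0.52 with the endothelial list and -0.70 with the smooth muscle list. Of 10 platelet markers 2 could be tested, of which Pf4 was called on day 7 and Gp1bb was not, and Gp1ba, Gp6 and Tubb1 had no count in any library. Pf4, which macrophages also express, rose from a mean of 9.97 CPM on day 0 to 222 on day 7, whereas Gp1bb, a subunit of the platelet receptor for von Willebrand factor, went from 72.8 to 43.8 CPM. Among the untested markers, Ppbp had no count on day 0 and stood at 4.84 to 21.4 CPM on day 7. Itga2b had a mean of 8.62 CPM on day 7, above that of day 0, and its libraries overlapped between these days. The summed platelet list lay between 55.1 and 109 CPM on day 0 and between 215 and 388 on day 7. The 10 endothelial markers summed to 700 to 1271 CPM on day 0 and to 792 to 2480 on day 7, and 4 of them were higher and 1 lower. The part of these cells in the Pdgfb result was not tested.

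Pdgfc encodes the C chain, a CUB-domain ligand of the α receptor. Its libraries held 31.3, 37.1, 29.8 and 28.9 CPM on day 0 and 35.6, 53.9, 39.9 and 37.1 on day 7. They held 67.2, 75.9 and 63.9 CPM on day 14, 82.8, 103, 102 and 135 on day 21, and 122, 54.6 and 131 on day 28. Every library of days 14, 21 and 28 exceeded every day 0 library, and every day 14 library exceeded every day 7 library. Days 0 and 7 overlapped, as did days 21 and 28, with day 28 replicate 2 far below the other two. The means of days 0, 7, 14, 21 and 28 were 31.8, 41.6, 69.0, 106 and 103 CPM.

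Against day 0 Pdgfc was 3.29-fold higher on day 21, with a log2 difference of 1.72 (SE 0.31, edgeR adjusted p = 0.000946), a call made in all 18 fits without 1 library. On day 28 it was 3.22-fold higher, at a log2 fold change of 1.69 (adjusted p = 0.00834 from edgeR), with the call lost without day 28 replicate 3 (adjusted p = 0.0517) and with the mouse block (0.176). The day 14 difference of 1.11 (SE 0.33, adjusted p = 0.0447 from edgeR) lay close to the threshold. The call was lost in 13 of the 18 fits without 1 library, at adjusted p of 0.0547 to 0.212, and with the mouse block (0.222). Those 13 left out any library of day 0 or day 14, replicates 1, 2 or 3 of day 7, or replicates 2, 3 or 4 of day 21, and the highest p came without day 14 replicate 2. The day 7 difference was 0.39 (adjusted p = 0.471).

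Pdgfd encodes the D chain, a CUB-domain ligand of the β receptor. It was the only member with a mean below that of day 0 on each later day. Its libraries stood at 195, 124, 171 and 123 CPM on day 0 and at 35.6, 27.0, 25.9 and 54.9 on day 7. The libraries held 114, 49.4 and 88.7 CPM on day 14, 73.3, 62.6, 135 and 133 on day 21, and 119, 91.0 and 155 on day 28. All libraries of days 7 and 14 lay below all of day 0, and those of days 21 and 28 overlapped day 0. The means went from 154 CPM on day 0 to 35.8, 83.9, 101 and 122 on days 7, 14, 21 and 28.

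The fall on day 7 was 4.23-fold, with a log2 difference of -2.08 (SE 0.35, edgeR adjusted p = 0.000103), and it was called in all 27 alternative fits, at adjusted p of at most 0.00346. On days 14, 21 and 28 the log2 fold changes were -0.86, -0.61 and -0.33, with adjusted p of 0.181, 0.280 and 0.709 from edgeR. The smooth muscle markers moved with it. All 10 were lower on day 7, and 5, 7 and 1 of them on days 14, 21 and 28. Across the 18 libraries the correlation of log2 CPM between Pdgfd and the summed list was 0.95, again a description over libraries that share their day. It was -0.85 with the proliferation markers, -0.79 with the platelet list and -0.75 with the macrophage list. With the fibroblast, pericyte and endothelial lists it was 0.63, 0.30 and -0.29. The share of smooth muscle cells in the Pdgfd result was not tested.

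**Figure D2:**
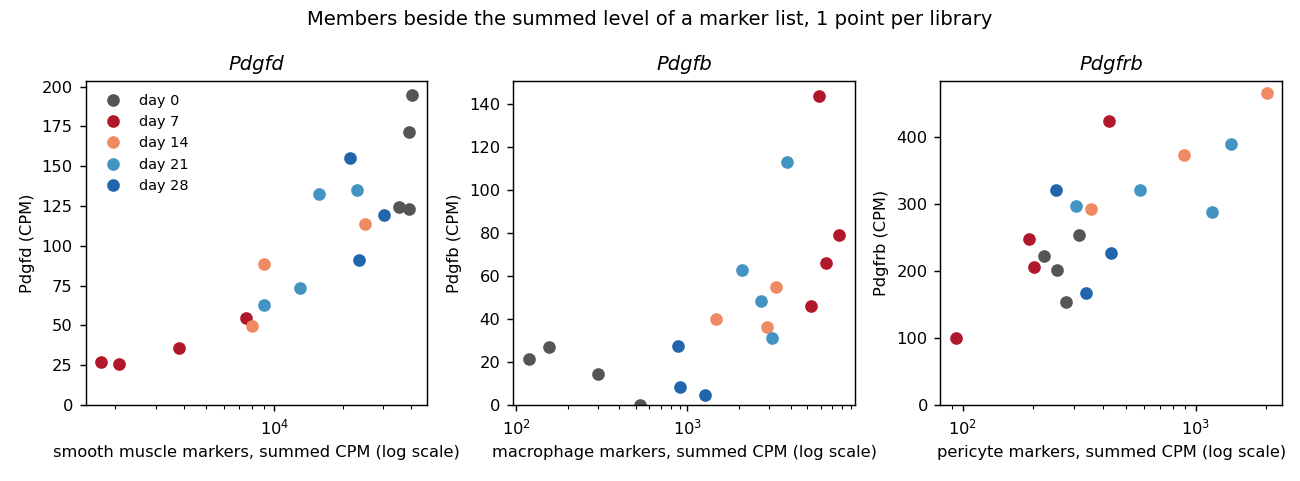
CPM of a member (linear axis from 0) against the summed CPM of a marker list (log scale), with 1 point per library coloured by day. Pdgfd followed the smooth muscle list (r = 0.95 on log2 CPM), Pdgfb was higher in libraries with more macrophage transcripts (r = 0.61) with day 28 near the bottom, and Pdgfrb is set beside the pericyte list (r = 0.75).

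The makeup of the ligand pool, taken as each ligand's share of the 4 ligands' counts within a library, needs no scaling between libraries. On day 0 Pdgfd made up 42.0% ± 7.02 (SD, n = 4), which compares with 12.4% ± 6.88 (SD, n = 4) on day 7. Pdgfb went from 4.29% ± 2.90 (SD, n = 4) to 26.4% ± 10.9 (SD, n = 4) over the same days, and by day 28 was at 2.90% ± 2.32 (SD, n = 3). The Pdgfc share of 8.88% ± 1.77 (SD, n = 4) before injury stood against 21.9% ± 5.97 (SD, n = 3) by day 28. Pdgfa held between 44.8% and 58.5% on average on every day. The total of the 4 ligands on days 0, 7 and 21 was 366 CPM ± 65.7, 314 ± 68.2 and 665 ± 96.5 (SD, n = 4 each). Day 0 and day 7 overlapped in the total and in the Pdgfa share, but not in the shares of the other ligands. For Pdgfd the lowest share on day 0 was 35.5% and the highest on day 7 was 21.7%. These shares were not tested.

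**Figure D3:**
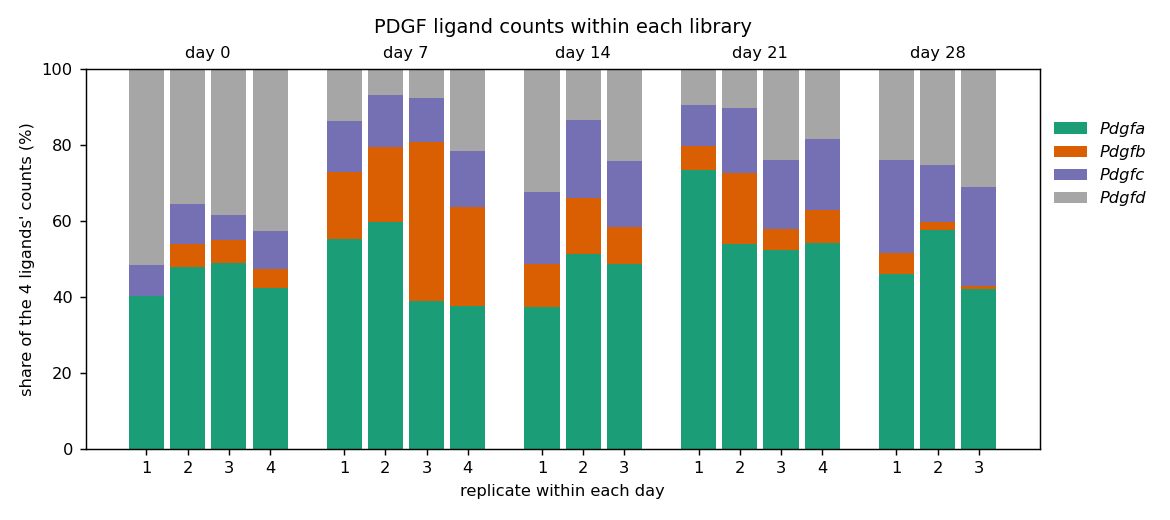
Share of the 4 PDGF ligands' counts taken by each ligand (percent, stacked to 100) in each of the 18 libraries, grouped by day and numbered by replicate. The Pdgfd share was 42.0% on average on day 0 and 12.4% on day 7, and the Pdgfb share was 4.29% and 26.4%.

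Pdgfra, the receptor that marks fibroblasts and other mesenchymal cells, stood at 41.7, 33.5, 14.9 and 19.7 CPM on day 0 and at 46.3, 84.5, 9.97 and 24.2 on day 7. It was at 48.0, 52.9 and 50.9 CPM on day 14, at 93.4, 40.4, 59.2 and 76.8 on day 21, and at 34.5, 38.0 and 20.8 on day 28. Day 7 libraries ranged from below to above all of day 0, day 14 libraries lay above all of day 0, and 1 of 4 day 21 libraries overlapped it. The log2 fold changes against day 0 were 0.59, 0.88, 1.30 and 0.18 on days 7, 14, 21 and 28, and none passed, the lowest adjusted p being 0.0925 on day 21 from edgeR. With 5 to 79 counts per library, the 95% interval of the day 21 difference ran from 0.31 to 2.29 before adjustment. The 12 fibroblast markers summed to 3995 to 5194 CPM before injury and 1999 to 3389 on day 7, where 7 were lower and 2 higher, and to 4417 to 6815 on day 21, with 3 in either direction. The correlation of log2 CPM between Pdgfra and this list was 0.35 over the 18 libraries. It was 0.44 with the pericyte list, 0.34 with the macrophage list and -0.57 with the endothelial list.

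Pdgfrb, the receptor of smooth muscle cells and pericytes, stood at 202, 253, 154 and 223 CPM on day 0 and at 248, 207, 99.7 and 425 on day 7. It was at 374, 293 and 466 CPM on day 14, at 297, 390, 321 and 289 on day 21, and at 168, 227 and 321 on day 28. All libraries of days 14 and 21 lay above all of day 0, and days 7 and 28 overlapped it. Its log2 fold changes against day 0 were 0.24, 0.86, 0.64 and 0.19, with adjusted p of 0.681, 0.141, 0.229 and 0.834 from edgeR. On day 7 the 95% interval of the difference was -0.40 to 0.87. In the same libraries the smooth muscle list, which shares cells with Pdgfrb, had all 10 genes lower and a median log2 fold change of -3.26, and the pericyte list summed to 93.7 to 423 CPM against 223 to 314 on day 0. The correlation of Pdgfrb over the 18 libraries was 0.75 with the summed pericyte list, 0.57 with the fibroblast list and 0.09 with the smooth muscle list. On average Rgs5 held 872 of the pericyte list's 1086 CPM on day 14 and 640 of 866 on day 21. Notch3 and Anpep also had means above day 0 on these days. Abcc9 went the other way, from 130 CPM on day 0 to 64.1 and 44.1, as did Kcnj8, from 46.0 to 31.3 and 13.2. Higd1b and Vtn had counts in only 1 and 2 libraries.

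Across the 4 comparisons with day 0, edgeR called 0 of the 2 receptors. At an unadjusted p under 0.05 there was 1 receptor on day 14, Pdgfrb, and 1 on day 21, Pdgfra, and DESeq2 and limma-voom also called none. The share of Pdgfrb in the counts of both receptors averaged 88.6% ± 4.07 (SD, n = 4) before injury, and 85.2% ± 10.4 (SD, n = 4), 87.8% ± 2.82 (SD, n = 3), 82.5% ± 6.41 (SD, n = 4) and 87.5% ± 5.71 (SD, n = 3) on days 7, 14, 21 and 28. Exact two-sided permutation tests against day 0 gave p = 0.657, 0.857, 0.2 and 0.857, and 0.857, 0.857, 0.8 and 0.857 after Benjamini-Hochberg adjustment over these 4 comparisons. The smallest p such a test allows is 0.0286 with 4 against 4 libraries and 0.0571 with 3 against 4. After adjustment over the 4 comparisons it cannot fall below 0.0571, so this test could not pass on any day.

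**Figure D4:**
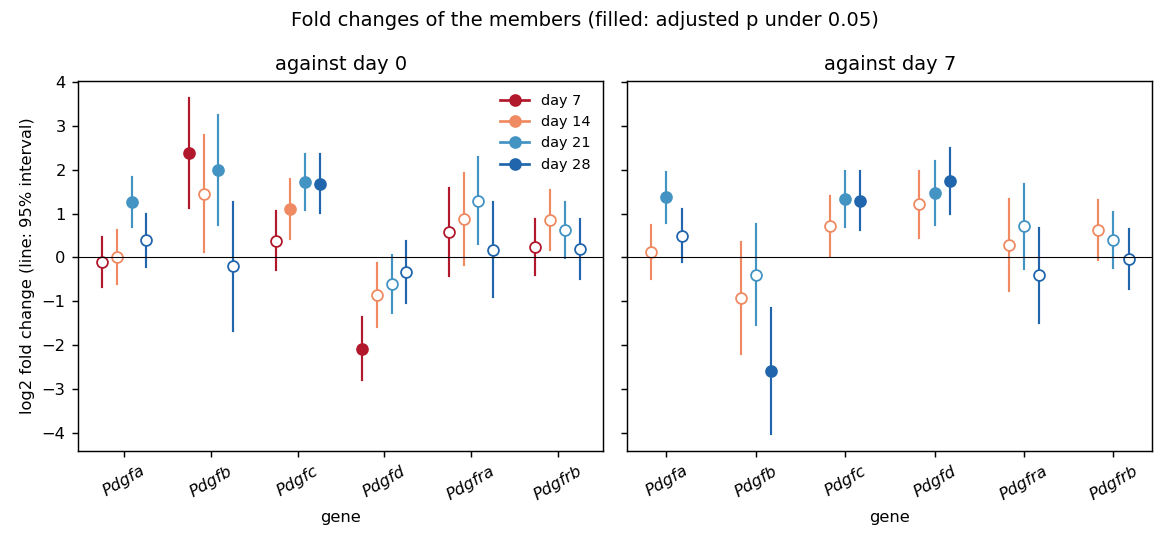
Log2 fold change of each member against day 0 (left) and against day 7 (right), with lines for the 95% interval of the edgeR fit, colours for the later day and filled points where the adjusted p was under 0.05. Pdgfb and Pdgfd moved in opposite directions on day 7 (2.39 and -2.08), and all receptor points are open.

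Days 14, 21 and 28 were also compared with day 7, to ask how the members changed once the first week had passed. Between day 7 and day 21 Pdgfa, Pdgfc and Pdgfd rose, and between day 7 and day 28 Pdgfc and Pdgfd rose and Pdgfb fell. These are 3 of 6 members in each comparison, where 7.26% of all genes were called on day 21 and 14.4% on day 28. From day 7 to day 21 the log2 fold change was 1.37 for Pdgfa (SE 0.28, edgeR adjusted p = 0.00252), 1.33 for Pdgfc (0.31, adjusted p = 0.00782) and 1.47 for Pdgfd (0.35, adjusted p = 0.00880). With the mouse block all 3 calls were lost, at adjusted p of 0.0926, 0.103 and 0.116. From day 7 to day 28 Pdgfd rose by 1.75 (SE 0.37, adjusted p = 0.00208 from edgeR) and Pdgfc by 1.30 (0.33, adjusted p = 0.00866). Pdgfb fell by 2.59 on the log2 scale, which is 6.04-fold (SE 0.70, adjusted p = 0.0127 from edgeR). This last call was lost without day 7 replicate 3 (adjusted p = 0.0507), day 28 replicate 2 (0.0574) or day 28 replicate 3 (0.0613).

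For day 14 against day 7, edgeR called 0 of 6 members, and 1.66% of all genes. At an unadjusted p under 0.05 there were 2 members, Pdgfc and Pdgfd, and DESeq2 called Pdgfd (adjusted p = 0.0392) whereas limma-voom called none. The Pdgfd difference of 1.22 (adjusted p = 0.104 from edgeR) passed without day 7 replicate 4 (0.0314) and without day 14 replicate 2 (0.0448). These comparisons share the day 7 libraries among themselves and with the comparison of day 7 with day 0.

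Among the proteases that cut PDGF chains and their inhibitors, 9 of 10 genes were tested. On days 7, 14, 21 and 28 edgeR called 22.2%, 11.1%, 22.2% and 11.1% of them, against 19.8%, 6.22%, 8.84% and 1.34% of all genes. Plau, the urokinase that releases the D chain, averaged 3.43 CPM ± 3.97 (SD, n = 4) before injury. By day 7 it had risen to 86.7 CPM ± 64.9 (SD, n = 4), and it was at 30.2, 24.6 and 5.34 CPM on average on days 14, 21 and 28. Its log2 fold changes were 4.50, 3.00 and 2.68 on days 7, 14 and 21 (adjusted p = 0.000309, 0.0346 and 0.0449 from edgeR), and limma-voom did not call days 14 and 21 (adjusted p = 0.0529 and 0.0729). Thus on day 7 the urokinase transcript was called higher and that of the ligand Pdgfd lower. Serpine2, an inhibitor of urokinase and other serine proteases, fell from 1285 to 482 CPM on day 7 (log2 fold change -1.41, adjusted p = 0.00202 from edgeR). Pcsk5, a furin-type convertase, rose by 1.48 on day 21 and 1.88 on day 28 (adjusted p = 0.00694 and 0.00789 from edgeR), from 41.0 CPM to 114 and 151. With the mouse number as a block, the calls of Serpine2 on day 7 (adjusted p = 0.0968 from edgeR) and Pcsk5 on day 28 (0.237) were lost. So were those of Plau on days 14 and 21 (0.210 and 0.0737). By edgeR no other gene of the list was called against day 0, Furin and Plat included. Plaur, the urokinase receptor, was called on day 7 by DESeq2 and limma-voom and on day 28 by DESeq2, where edgeR gave adjusted p of 0.0550 and 0.108, and is named after its values were seen.

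Among 10 co-receptors and receptor partners, 3 rose and 1 fell on day 7, 1 rose and 1 fell on day 14, and 3 rose on day 21. These are 40%, 20% and 30% of the list, against 19.8%, 6.22% and 8.84% of all genes. Cd44, a hyaluronan receptor, had log2 fold changes of 2.75, 1.84 and 1.65 on days 7, 14 and 21 (adjusted p = 2.5e-05, 0.00793 and 0.0109 from edgeR), and leukocytes carry it too. Its day 14 call was lost with the mouse block (adjusted p = 0.0938 from edgeR). Nrp1, a co-receptor that binds PDGF-B among other ligands, rose by 2.21 on day 21 (adjusted p = 0.000566), from 41.0 to 190 CPM. Cspg4, the NG2 proteoglycan of mural cells that binds the A chain, fell from 597 to 182 CPM on day 7 (log2 fold change -1.71, adjusted p = 0.000259 from edgeR) and had a mean of 598 CPM on day 28. On day 28 edgeR called 0 of the 10, with 2 at an unadjusted p under 0.05 and 1 called by DESeq2.

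Extracellular proteins that bind PDGF had 5 of their 9 tested genes higher on both day 14 and day 21. On day 7 there were 4 such genes and on day 28 there was 1, and 0 fell on any day. The shares on days 7, 14, 21 and 28 were 44.4%, 55.6%, 55.6% and 11.1%, against 19.8%, 6.22%, 8.84% and 1.34% of all genes. Sparc, a matrix protein that holds PDGF-B off its receptor, had a day 0 level of 2756 CPM ± 397 (SD, n = 4) and rose. Its day 14 and day 21 levels were 7240 ± 290 (SD, n = 3) and 10430 ± 4359 (SD, n = 4), with log2 fold changes of 1.39 and 1.92 (adjusted p = 0.00179 and 2.79e-05 from edgeR), and the day 28 mean was 3068 CPM. Sdc1, a heparan sulphate proteoglycan, rose on all 4 days, by 2.32, 2.86, 2.60 and 1.58, the last at an adjusted p of 0.0440 from edgeR and not called by limma-voom (0.138). Thbs1 and Thbs2, the thrombospondins, rose on days 7, 14 and 21. The median log2 fold change of this list on day 14 was 1.34, against 0.05 over all genes.

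Of 32 proteins that carry the signal from the receptors, 4 rose and 1 fell on day 7, and 1, 2 and 1 rose on days 14, 21 and 28. The 15.6% called on day 7, 3.12% on day 14 and 6.25% on day 21 were below the 19.8%, 6.22% and 8.84% of all genes. The 3.12% on day 28, which is 1 gene, was above the 1.34% of all genes. Plcg1, Nras and Grb2 rose on day 7 by 1.17, 1.18 and 1.04 on the log2 scale, and Pik3r1 rose by 1.45 on day 21. Grb2 was named outside the rule for named genes, after its values were seen. The list's median log2 fold change lay between 0.02 and 0.27 over the 4 days, against -0.01 to 0.07 over all genes.

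Of 16 tested attenuators of receptor signalling, 3 rose on day 7, 1 on day 14 and 2 on day 21, and edgeR called 0 on day 28, where 1 had an unadjusted p under 0.05 and DESeq2 called none. The shares of 18.8%, 6.25% and 12.5% compare with 19.8%, 6.22% and 8.84% of all genes, so those of days 7 and 14 were near the background. Dusp6, the phosphatase of ERK, rose 2.37 on day 7 and 1.47 on day 21 on the log2 scale (adjusted p = 0.000377 and 0.0394 from edgeR). Ptpn1, which dephosphorylates the receptors, rose 1.18 on day 7 (adjusted p = 0.0195). Socs3, a suppressor of cytokine signalling, had at most 2 counts in a day 0 library. Measured against 3 counts per library, its mean was at least 12.2-fold higher on day 7, 7.56-fold on day 14 and 5.17-fold on day 21. The lowest library on these days held 1.61, 1.60 and 2.02 CPM, below the highest day 0 library at 2.39 CPM. By limma-voom Socs3 was not called on any of these days (adjusted p = 0.0639, 0.215 and 0.153).

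Of 18 tested immediate early genes, which PDGF induces in quiescent fibroblasts within the first hours, 4 rose on day 7 and edgeR called 0 on days 14, 21 and 28. On those days 3, 2 and 2 genes had an unadjusted p under 0.05, and DESeq2 called 1, 1 and 0. The 22.2% called on day 7 was near the 19.8% of all genes. Junb, at 24.1 CPM ± 6.49 (SD, n = 4) before injury, rose to 170 ± 89.2 (SD, n = 4) by day 7 (log2 fold change 2.80, adjusted p = 0.000166 from edgeR), Ccn1 by 1.78, Zfp36 by 1.41 and Myc by 3.40. The 12 proliferation markers moved on the same day, with 9 higher on day 7, and summed to 396 to 789 CPM against 75.3 to 161 on day 0. The part of Pdgfb or of any ligand in these changes was not tested.

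Of 13 tested relatives in the PDGF and VEGF family and their type III receptor kin, 5 rose and 1 fell on day 7, 2 rose and 1 fell on day 14, 5 rose and 1 fell on day 21, and 0 were called on day 28, where edgeR gave 2 an unadjusted p under 0.05 and DESeq2 called none. The shares called were 46.2%, 23.1% and 46.2%, against 19.8%, 6.22% and 8.84% of all genes, and 1.34% of all genes on day 28. Csf1r, the macrophage receptor closest to the PDGF receptors, rose from 22.8 to 186 CPM on day 7, with log2 fold changes of 3.03, 2.29 and 2.01 on days 7, 14 and 21 (adjusted p = 7.58e-06, 0.00139 and 0.00257 from edgeR). The VEGF receptors rose as well, Flt1 by 1.72 on day 7 and 1.97 on day 21 on the log2 scale, and Kdr at least 7.07-fold on day 7 against 3 counts per library. Kit, the stem cell factor receptor, was at least 9.90-fold higher on day 7. Whether these receptors and Pdgfra or Pdgfrb differ in their response was not tested.

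**Figure D5:**
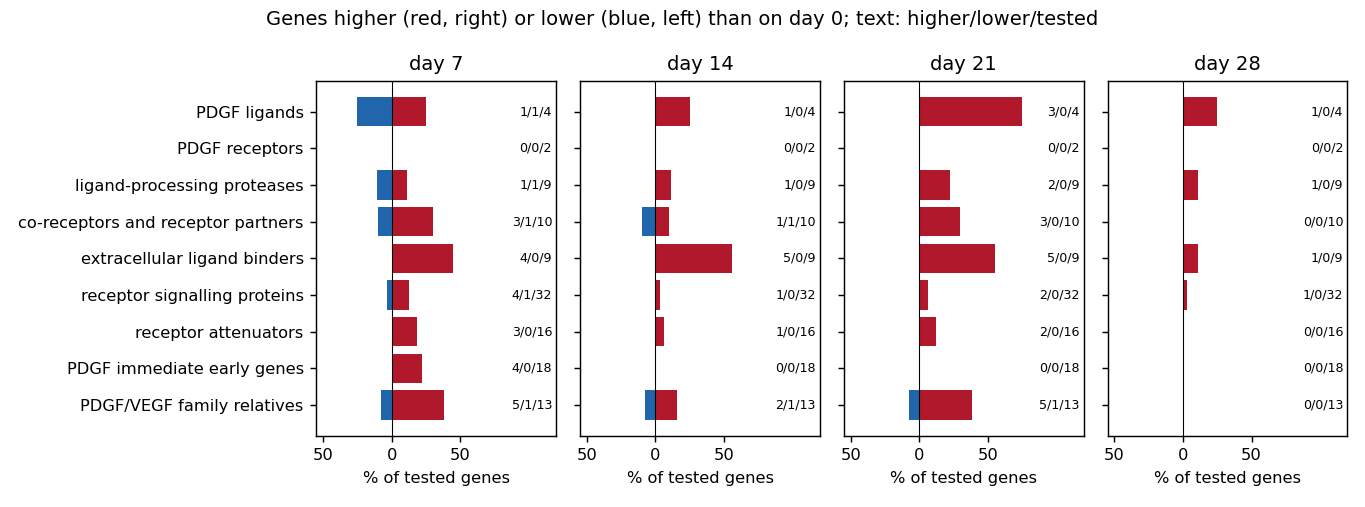
Percent of the tested genes of each list that were higher (red, to the right) or lower (blue, to the left) than on day 0 on days 7, 14, 21 and 28, with the counts of higher, lower and tested genes beside each bar. The ligand list reached 3 of 4 on day 21, the receptor list stayed at 0 of 2, and 5 of 9 extracellular binders were higher on days 14 and 21.

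The genes whose log2 CPM followed a member most closely over the 18 libraries are given as a description, among 7182 genes of at least 20 CPM on average. Pdgfd was most like Cpe, Jph2 and Sost, each at a Pearson r of 0.95, and after subtraction of the day means the r was 0.90, 0.82 and 0.77. Pdgfa was most like Wnt4 (r = 0.91, 0.67 within days), and then AU022252 and Rbm39. Pdgfb was most like Nceh1 (0.88, 0.75 within days), and then Azin1. Pdgfc was most like Crispld1 (0.84, 0.32 within days), Scarf2 and Kank4. Pdgfrb was most like Art4 (0.87, 0.79 within days), Mxra8 and Mgp, and Pdgfra most like Mia (0.78, 0.62 within days), Cux1 and Lum, the last of which is on the fibroblast marker list. Among the members themselves, Pdgfb and Pdgfd ran opposite (r = -0.71), Pdgfa and Pdgfc together (r = 0.66), and the receptors had an r of 0.48.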

How the data were processed

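RNA of laser-dissected mouse carotid tissue was measured in 18 MACE libraries of 5 days. Before quantification with Salmon 1.9.0 on the mm39 transcriptome, the authors collapsed PCR copies by their molecular barcodes and cropped adapters and poor bases. The annotation release and the use of strand are not given in the sources used here. The deposited values are estimated counts (expected counts) of each gene, rounded and not normalized, and a signal, the counts normalised by the authors with DESeq2 1.36.0, which was used in 1 alternative only. Columns with the authors' comparisons were not used.

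The 6 members were found by symbol. Groups were the labelled days. The model was fitted with edgeR 4.0.16 under R 4.3.3 (filterByExpr by day, TMM, quasi-likelihood test, day as the only term, all libraries in 1 fit), calling genes at a Benjamini-Hochberg adjusted p under 0.05 among 10312. Totals had a median of 659166 counts, and the biological coefficient of variation was 0.449. CPM used the TMM-scaled totals. Fold changes are log2. A fold against day 0 libraries of at most 3 counts each is given as a bound, using 3 counts per library, which covers counting error only. No 2 libraries of a day held the same counts.

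Named were all members and, of each pathway list, up to 4 genes with the smallest p against day 0 among those called, and for each member the 3 genes with the highest correlation of log2 CPM (prior count 2, at least 20 CPM on average). Of the lists, 2 symbols (Cyr61 and Figf, older names of listed genes) had no row. Some genes that the rule names are not reported here. The members and lists were chosen with earlier results of these data known. Promoter motifs were searched in RefSeq's table.

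Alternatives were RLE normalization, DESeq2 1.42.0, limma-voom (limma 3.58.1), 2 other filters, limma on log2 of the deposited normalised values plus 1, the 2 days alone, blocks for replicate and mouse number, and each library left out. Same-numbered replicates had a median residual correlation of -0.01 over 33 pairs and were not treated as paired. The 3 pairs that share the number read as the mouse had correlations of -0.01 to 0.06, and the fit with the mouse as a block is given where it changes the call of a member. For the pathway lists, the number of calls that this fit kept is given by day. The steps were tested on simulated data.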

Additional observations from a re-analysis of the deposited data

Results flagged for a closer look

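The responses on later days differed from the response on day 7 for 4 of the 6 members, by the direct test of the days in edgeR. The shares of all genes called in these comparisons were 1.66%, 7.26% and 14.4%. Between days 7 and 21 the log2 fold changes differed by 1.37 for Pdgfa, 1.33 for Pdgfc and 1.47 for Pdgfd. These 3 calls, the first of which is the only one for Pdgfa, were lost with the mouse block (adjusted p = 0.0926, 0.103 and 0.116 from edgeR). Between days 7 and 28 they differed by -2.59 for Pdgfb, 1.30 for Pdgfc and 1.75 for Pdgfd. Pdgfd and Pdgfb thus each moved back towards their day 0 levels after day 7, whereas Pdgfc moved further from its day 0 level. Dixon's test was applied to 21 sets of 4 values, each member and the Pdgfrb share of receptor counts on days 0, 7 and 21. None held a value beyond its limit of 0.829. Days 14 and 28, with 3 libraries each, were not searched.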

How the results depend on the processing

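Each value was recomputed in 9 alternative fits and in 18 fits that left out 1 library. Over the 6 members and 7 comparisons, 354 of 378 values from the alternative fits kept their direction and their side of the threshold, 14 lost a call, 1 gained one and 9 turned their sign. Without 1 library the numbers were 701, 24, 2 and 29 of 756. All values that turned belonged to differences that were not called. The called fall of Pdgfd on day 7 and the rises of Pdgfa and Pdgfc on day 21 against day 0 stayed called in all 27 fits.

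The number of members called on day 7 was 1 with the mouse block. On day 14 it was 0 with limma-voom, without a filter, with the replicate block, with the mouse block, with the deposited normalised values and with the 2 days alone. On day 28 it was 0 with the mouse block and the 2 days alone. For day 14 against day 7 it was 1 with DESeq2, and for day 21 against day 7 it was 0 with the mouse block. By construction, the mouse block compares most day 0 libraries within a mouse, so that fewer of them bear on days 7, 14 and 28. With 1 library left out, the count was 0 to 1 on day 14, 0 to 1 on day 28 and 0 to 1 for day 14 against day 7. The counts for day 21 against day 0 and day 28 against day 7 also moved, as Pdgfb lost its call in 7 and 3 of these fits. The replicate block also took the day 21 call from Pdgfb (adjusted p = 0.0567 from edgeR) and the day 14 call from Pdgfc (0.0835), and ended no other call. The replicate numbers are shared without a pairing.

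The values that turned were the following. Pdgfa on day 7 was at 0.0799 with the mouse block and on day 14 at -0.0886 with the replicate block. Pdgfb on day 28 was at 0.280 with limma-voom and 0.101 with the normalised values. For day 28 against day 7, Pdgfra was at 0.0357 with the normalised values, and Pdgfrb at 0.0633 with limma-voom, 0.131 with the replicate block, 0.0904 with the normalised values and 0.0188 with the 2 days alone. The cause was not tested. No scaling moved the median over all genes by over 0.1 on the log2 scale.

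Log2 differences that turned in a fit without 1 library had these ranges. For day 7 against day 0 they were -0.45 to 0.0562 for Pdgfa, -0.0647 to 0.863 for Pdgfra and -0.178 to 0.459 for Pdgfrb. For day 14 against day 0 they were -0.114 to 0.178 for Pdgfa. For day 28 against day 0 they were -1.24 to 0.175 for Pdgfb, -0.0162 to 0.446 for Pdgfra and -0.0758 to 0.406 for Pdgfrb. For day 14 against day 7 they were -0.0443 to 0.433 for Pdgfa and -0.0139 to 0.914 for Pdgfra. For day 21 against day 7 they were -0.79 to 0.00279 for Pdgfb. For day 28 against day 7 they were -0.688 to 0.239 for Pdgfra and -0.302 to 0.376 for Pdgfrb. The difference for the Pdgfrb share of receptor counts, day 7 vs day 0, ranged from -6.53 to 1.34 percentage points, turning without day 7 replicate 2. The count over all genes on day 28 was 138, against 318 with DESeq2, 76 with limma-voom, 363 without a filter, 72 with the replicate block, 3 with the mouse block and 32 with the 2 days alone. The mouse block gave 1047 in place of 2041 on day 7, 199 in place of 641 on day 14 and 223 in place of 749 for day 21 against day 7. For day 14 against day 7 the count was 171, against 335 with DESeq2, 392 without a filter and 83 with the 2 days alone, and for day 28 against day 7 it was 1490, against 922 with the 2 days alone. Depth limits Pdgfb and Pdgfra most, with medians of 25.5 and 27 counts per library. Of 64 calls by edgeR in the pathway lists against day 0, all were also made by DESeq2, 54 by limma-voom and 38 with the mouse block. By day, the mouse block kept 16 of 28 calls on day 7, 4 of 13 on day 14, 18 of 20 on day 21 and 0 of 3 on day 28.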
